A study of Mus musculus with 18 samples.

Results

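MYC binding sites were compared between liver tumours of mice with floxed Arid1a and no Cre and liver tumours of mice with 1 floxed Arid1a allele and a liver Cre. They came from 6 chromatin immunoprecipitation sequencing libraries, 3 of each genotype, out of 9 MYC libraries in the series. The overlapping peaks of the 6 libraries, 9910 in all, were merged into 4775 regions. The 9 MYC libraries of the series also merged into 4775 regions, because the third genotype (Homo) added 1 region of its own and bridged 1 pair of the others. All mice were of the FVB strain and carried LAP-tTA with TRE-MYC (LAP-MYC), in which a liver promoter drives the transactivator and removal of doxycycline water switches MYC on. WT mice had both Arid1a alleles floxed and no Cre, and were about 55 days old. Het mice had 1 floxed and 1 normal allele with Alb-cre, an albumin-driven Cre of hepatocytes, and were about 70 days old. Loss of the floxed allele is not measured by these files. Age and Cre thus changed with Arid1a dose, and their parts cannot be told apart. The tumours were taken at death and frozen as whole tissue, so fewer tumour cells and less binding per cell cannot be told apart. The labels do not say whether the 3 libraries of a genotype are 3 animals, so each p-value refers to the spread among libraries, which may be technical.

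MYC binds DNA as a dimer with MAX and prefers the E-box, the palindrome CACGTG, mostly in promoters that are already open. Its best known targets build ribosomes, make nucleotides and polyamines, and prepare cells to divide. Arid1a is a DNA-binding subunit of SWI/SNF, a remodelling complex that moves nucleosomes and opens enhancers and promoters. The comparison asks whether MYC is found at other sites when 1 Arid1a allele is targeted in the liver.

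The promoters below show what such sites look like. Each is the window from 250 bp before to 50 bp after a RefSeq start site (GRCm38.p6), written 5′ to 3′ on the gene's strand, with a CACGTG in capitals. The first 4 belong to genes bound in all 6 libraries and were chosen because they hold the motif. They are Wipf2 (an actin regulator of the WIP family, chr11:98863348-98863647, plus strand), Dazap1 (an RNA-binding protein, chr10:80264764-80265063, plus strand), Xpot (the exporter of tRNA, chr10:121626283-121626582, minus strand) and Ube2cbp (chr9:86464867-86465166, minus strand). Fam185a (chr5:21424653-21424952, plus strand) was also bound in 6 libraries, but its summit lay 533 bp into the gene, outside the printed window, which holds no CACGTG. Dpp8 (a dipeptidyl peptidase, chr9:65032208-65032507, plus strand) was bound in 2 WT and 0 Het libraries. Mrps18a (a mitochondrial ribosomal protein, chr17:46110754-46111053, plus strand) was bound in 2 Het and 0 WT libraries and has none either. Mrps18a was chosen after its values were seen, because no window that overlaps the regions of the 10 named Het-side genes held the motif.
Wipf2: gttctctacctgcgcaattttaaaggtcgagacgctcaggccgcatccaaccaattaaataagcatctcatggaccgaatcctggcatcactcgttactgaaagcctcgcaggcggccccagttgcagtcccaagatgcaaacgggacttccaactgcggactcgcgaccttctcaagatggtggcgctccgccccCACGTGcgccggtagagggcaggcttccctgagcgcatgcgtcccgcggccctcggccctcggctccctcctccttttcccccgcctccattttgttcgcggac
Dazap1: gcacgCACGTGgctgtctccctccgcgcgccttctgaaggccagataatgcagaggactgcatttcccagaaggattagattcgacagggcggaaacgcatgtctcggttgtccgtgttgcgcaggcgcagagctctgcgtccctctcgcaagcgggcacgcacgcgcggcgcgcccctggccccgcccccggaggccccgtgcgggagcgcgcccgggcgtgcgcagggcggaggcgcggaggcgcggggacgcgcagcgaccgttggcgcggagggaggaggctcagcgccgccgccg
Xpot: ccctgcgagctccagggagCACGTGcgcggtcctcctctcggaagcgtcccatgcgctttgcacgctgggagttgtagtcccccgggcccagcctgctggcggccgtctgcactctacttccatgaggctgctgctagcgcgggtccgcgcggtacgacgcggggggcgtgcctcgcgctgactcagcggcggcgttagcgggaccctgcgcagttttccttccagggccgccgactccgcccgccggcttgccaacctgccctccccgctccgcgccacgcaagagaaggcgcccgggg
Ube2cbp: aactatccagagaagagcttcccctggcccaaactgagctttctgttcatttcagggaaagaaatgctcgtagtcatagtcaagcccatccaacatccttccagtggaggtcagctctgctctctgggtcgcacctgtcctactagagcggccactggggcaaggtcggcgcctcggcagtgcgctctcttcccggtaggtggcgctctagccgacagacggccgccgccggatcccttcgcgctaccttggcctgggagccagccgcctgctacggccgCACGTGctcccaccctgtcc
Fam185a: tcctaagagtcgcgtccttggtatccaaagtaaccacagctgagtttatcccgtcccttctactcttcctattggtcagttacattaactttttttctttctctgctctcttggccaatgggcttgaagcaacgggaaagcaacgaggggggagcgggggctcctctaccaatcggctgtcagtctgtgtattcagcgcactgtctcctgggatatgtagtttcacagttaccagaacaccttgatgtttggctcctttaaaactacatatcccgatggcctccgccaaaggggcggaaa
Dpp8: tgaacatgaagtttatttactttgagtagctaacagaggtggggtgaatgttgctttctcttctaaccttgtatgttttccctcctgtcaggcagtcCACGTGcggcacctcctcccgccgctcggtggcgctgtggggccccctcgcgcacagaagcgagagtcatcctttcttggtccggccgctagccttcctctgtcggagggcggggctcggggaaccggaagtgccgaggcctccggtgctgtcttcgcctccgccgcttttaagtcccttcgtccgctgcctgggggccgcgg
Mrps18a: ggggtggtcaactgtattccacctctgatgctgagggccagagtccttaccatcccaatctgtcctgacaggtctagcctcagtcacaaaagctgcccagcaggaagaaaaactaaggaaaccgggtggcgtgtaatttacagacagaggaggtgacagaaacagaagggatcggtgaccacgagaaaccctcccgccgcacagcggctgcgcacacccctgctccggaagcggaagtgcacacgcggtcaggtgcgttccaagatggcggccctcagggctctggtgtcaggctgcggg

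In Wipf2 the highest summit lay 63 bp before the start and 12 bp from the centre of the E-box. In Xpot it lay 6 bp from the E-box, in Dpp8 20 bp and in Dazap1 30 bp. The Ube2cbp summit lay 179 bp into the gene, outside the printed window and 146 bp from its E-box. The Mrps18a summit lay 16 bp after the start.

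List length varied widely within each genotype. WT replicates 1, 2 and 3 had 92, 1567 and 4291 peaks, and Het replicates 1, 2 and 3 had 1713, 1869 and 378. The mean was 1983 ± 2130 peaks in WT and 1320 ± 819.5 in Het (SD, n = 3 each), and the 2 ranges overlapped. On the log10 scale the Het minus WT difference was 0.10 (two-sided exact permutation test p = 0.8, adjusted p = 0.8 over 4 tests), and 3 against 3 libraries cannot give a p below 0.1. Depth did not follow list length. Reads per kb of the input, solved from the authors' fold and p, were 4.04, 6.27 and 5.62 in WT and 4.34, 3.63 and 3.83 in Het. The corresponding MYC libraries had 14.8, 13.7 and 11.1 in WT and 15.2, 7.80 and 8.29 in Het, so the 92-peak list came from one of the deeper MYC libraries.

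Regions were sorted by the number of libraries of each genotype that had a peak. A region was called shared with a peak in at least 2 WT and at least 2 Het libraries, which held for 863 of 4775 regions (18.1%). There were 197 regions (4.13%) with a peak in at least 2 WT and 0 Het libraries, named WT side here, and 29 (0.607%) with a peak in at least 2 Het and 0 WT libraries, named Het side. A further 312 regions had at least 2 WT and 1 Het library, 284 at least 2 Het and 1 WT library, and 664 had 1 of each. The remaining 2426 regions were found in 1 library, and 2022 of these were peaks of WT replicate 3 alone.

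**Figure D1:**
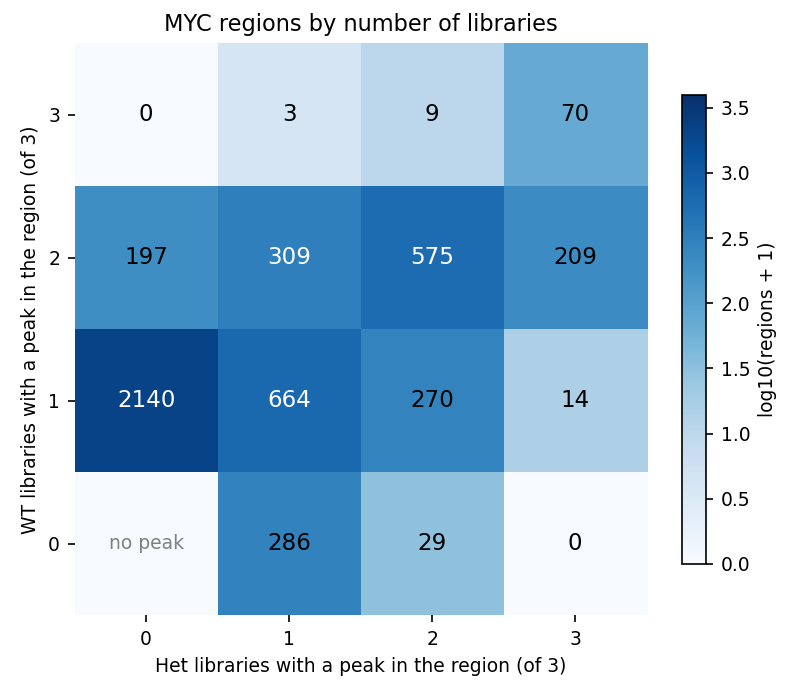
Number of merged MYC regions by the number of WT libraries (vertical axis, of 3) and Het libraries (horizontal axis, of 3) with a peak in them, with colour on a log10 scale. The cell of 1 WT and 0 Het libraries is the fullest with 2140 regions, no region had 3 libraries of 1 genotype and 0 of the other, and 70 regions had all 6.

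The sides rest on few libraries. Of the 197 WT-side regions, 195 had WT replicates 2 and 3 and the other 2 had WT replicates 1 and 3. All 29 Het-side regions had Het replicates 1 and 2. No region was found in all 3 libraries of one genotype and none of the other. Leaving out WT replicate 3, the longest list, gave 0 WT-side, 297 Het-side and 79 shared regions. Leaving out WT replicate 2 gave 2, 48 and 79, leaving out Het replicate 1 gave 341, 0 and 289, and leaving out Het replicate 2 gave 361, 0 and 291. With WT replicate 3, Het replicate 1 or Het replicate 2 left out, a side thus held more regions than the shared class. The WT side was also not the larger under every setting. With 1 limit on −log10 p (at least 10) for all lists there were 161 WT-side, 24 Het-side and 654 shared regions. With the same limit and the reads of every list scaled down to the depth of the lowest input, there were 38, 82 and 408. The cause of this change was not tested. Of the 197 WT-side regions 20 kept that class after this thinning, and of the 29 Het-side regions 9 did.

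Most regions of a list recurred in the other genotype. The share with a peak in at least 1 library of the other genotype was 96.5%, 79.9% and 48.1% in WT replicates 1 to 3, and 92.3%, 90.2% and 90.8% in Het replicates 1 to 3. WT replicate 3, the longest list, was the low one. The 3 lists of like length allow a closer look. WT replicate 2 and Het replicate 1 overlapped in 66.7% of the shorter list and 61.3% of the longer. WT replicate 2 and Het replicate 2 overlapped in 67.6% and 56.9%. The Het pair, replicates 1 and 2, overlapped in 67.5% and 62.0%. By share of the shorter list the Het pair lay between the 2 mixed pairs, and by share of the longer list just above both. Over all 15 pairs the mean share of the shorter list was 86.0% within genotypes and 83.8% between them. That difference of 2.26 percentage points did not pass (one-sided exact permutation test p = 0.2, adjusted p = 0.8), and it was −0.23 without WT replicate 1 and −5.97 without WT replicate 2.

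Summits lay as close together between genotypes as within them. The median distance between the summits of 2 libraries in one region was 22.5 to 28 bp over the 6 pairs within a genotype and 21 to 29.5 bp over the 9 pairs between genotypes. For WT replicate 2 it was 26 bp to WT replicate 3, 23 bp to Het replicate 1 and 27 bp to Het replicate 2.

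Binding lay mainly at gene starts in 4 of the 6 libraries. A summit counts as at a gene start when it is within 1 kb of a start of a protein-coding gene. The share of peaks there was 17.4% in WT replicate 1 (exact 95% interval 10.3% to 26.7%), 64.5% in replicate 2 (62.1% to 66.9%) and 69.4% in replicate 3 (68.0% to 70.8%). In Het it was 67.5% in replicate 1 (65.3% to 69.8%), 68.5% in replicate 2 (66.4% to 70.6%) and 49.7% in replicate 3 (44.6% to 54.9%). The 2 shortest lists had the lowest shares, 1 in each genotype. The mean share was 50.4% ± 28.7 in WT and 61.9% ± 10.6 in Het (SD, n = 3 each), a difference of 11.5 percentage points (two-sided exact permutation test p = 0.7, adjusted p = 0.8) that became −5.02 without WT replicate 1.

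The genotype classes did not differ in position beyond their intervals. Of the shared regions 69.4% lay at a gene start (599 of 863, exact 95% interval 66.2% to 72.5%), of the WT-side regions 66.5% (131 of 197, 59.4% to 73.0%) and of the Het-side regions 55.2% (16 of 29, 35.7% to 73.6%). Regions of 1 library had 63.4% and all regions 66.2%. Away from starts, 149 of 264 shared, 36 of 66 WT-side and 8 of 13 Het-side regions lay inside a gene and the others between genes. Median ranks within a list rose with each further library only in WT replicate 3 and Het replicate 2. For regions of 1, 2 and 3 libraries the median percentile was 43.7, 39.9 and 36.8 in WT replicate 2. In Het replicate 1 it was 43.3, 35.4 and 42.5. Regions of 4 or more libraries stood higher in both. By the authors' fold over background, WT-side regions had a median percentile of 38.7 in WT replicate 2 and 53.8 in replicate 3, against 60.1 and 83.4 for shared regions. Het-side regions had 43.4 and 50.2 in Het replicates 1 and 2, against 62.1 and 65.8. All regions with 2 libraries, the side regions among them, had 39.9 and 49.3 in WT replicates 2 and 3. In Het replicates 1 and 2 they had 35.4 and 40.8. Regions of 1 WT and 1 Het library had 44.5 and 48.7 in these WT lists and 34.9 and 40.8 in these Het lists. WT-side regions thus stood below that class in WT replicate 2 and above it in WT replicate 3. Het-side regions stood above it in Het replicates 1 and 2.

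**Figure D2:**
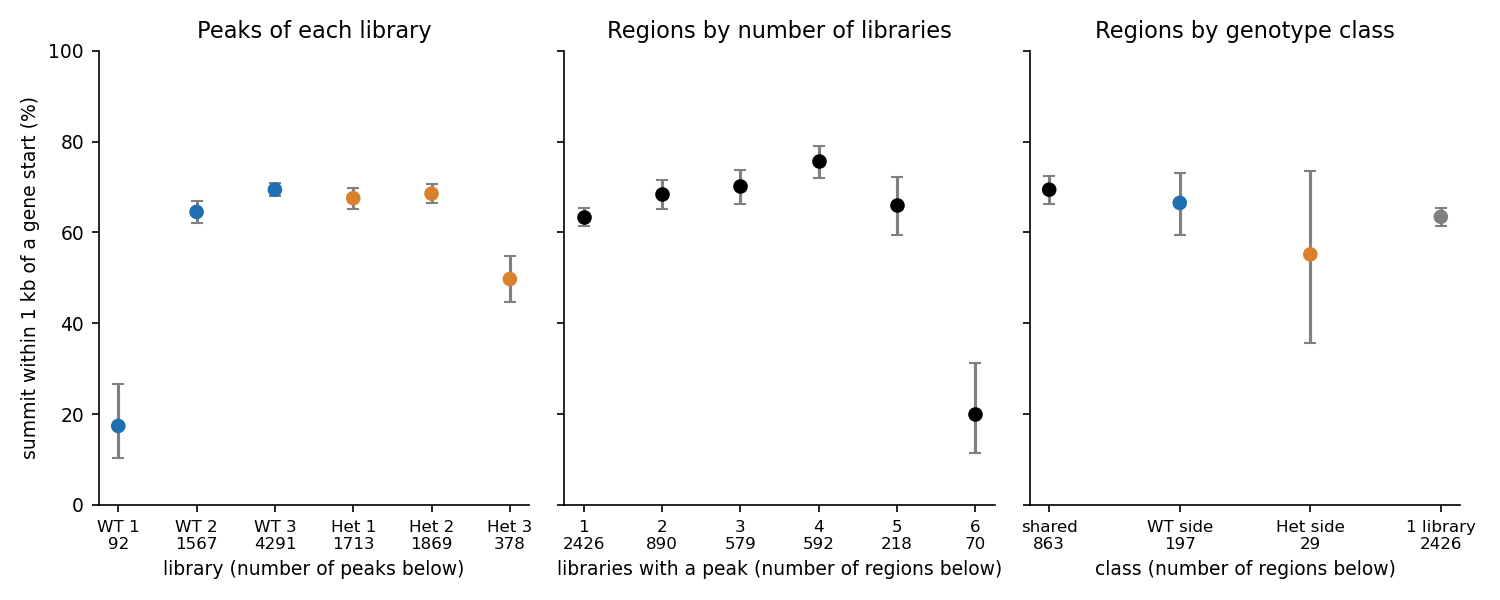
Share of summits within 1 kb of a gene start, in percent with exact 95% intervals, for the peaks of each library (left, WT blue and Het orange), for regions by the number of libraries with a peak (middle) and for regions by class (right), with the number of peaks or regions under each point. WT replicate 1 (17.4%) and the regions of all 6 libraries (20.0%) sit far below the other points.

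The regions found in all 6 libraries were mostly away from gene starts. Of these 70 regions 14 (20.0%, exact 95% interval 11.4% to 31.3%) lay at a gene start, compared with 63.4% to 75.7% of the regions found in 1 to 5 libraries. They are 70 of the 86 regions of WT replicate 1, whose peaks had a gene-start share of 17.4%, so the 2 values are largely the same measurement. These regions were not compared with a list of regions of known background or with repeats. Of the other 56 regions 28 lay inside genes and 28 between them, and their median distance to a start was 40.6 kb. Off-start regions in 1 to 5 libraries had medians from 8.60 to 14.5 kb. They stood near the top of each long list, at a median percentile of 98.1 and 97.0 in WT replicates 2 and 3 and 97.2 and 94.0 in Het replicates 1 and 2. The first of them by rank lay inside Mns1, 15982 bp from its start (chr9:72454289-72454748), with folds of 26.4, 43.2 and 24.7 in WT and 21.5, 17.8 and 32.1 in Het. The next lay 16958 bp from the start of Pdgfb (chr15:79978459-79979222), with 23.8, 37.9 and 27.2 in WT and 16.7, 32.8 and 30.8 in Het. In both regions the folds of the genotypes overlapped.

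First among the genes bound in all 6 libraries was Ncl. It encodes nucleolin, a major protein of the nucleolus (chr1, span 86344719 to 86359455, summit 662 bp into the gene). Its folds were 10.9, 19.5 and 25.5 in WT replicates 1 to 3 and 17.0, 23.8 and 13.6 in Het replicates 1 to 3. Folds are the authors' own values. Srm, spermidine synthase, had 7.16, 10.7 and 16.6 in WT and 15.0, 8.51 and 11.1 in Het. Xpot had 6.91, 11.1 and 32.5 in WT and 10.05, 21.5 and 6.80 in Het. Vars, the valyl-tRNA synthetase, shares its region with D17H6S56E-5 and had 6.28, 9.43 and 12.3 in WT and 10.8, 12.1 and 7.31 in Het. Supv3l1, a mitochondrial RNA helicase, had 5.50, 7.71 and 14.8 in WT and 10.4, 26.7 and 4.87 in Het. Fam185a and Ccdc146 share a region, with 7.69, 10.8 and 11.8 in WT and 15.6, 16.2 and 12.98 in Het. Wipf2, Pde4a (a cyclic AMP phosphodiesterase), Dazap1 and Ube2cbp complete the 12 named genes. The ranges of WT and Het folds did not overlap in the single region of Fam185a and Ccdc146. They overlapped in the regions of the other named genes. How often they overlap over all regions of 6 libraries is not given here, and folds of different lists are not on 1 scale.

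Counted by gene, 3367 of 21887 protein-coding genes (15.4%) had a summit at a start in at least 1 of the 6 libraries. Of all genes 674 (3.08%) were shared, 145 (0.662%) on the WT side and 19 (0.0868%) on the Het side. At least 2 WT libraries held for 1059 genes and at least 2 Het libraries for 910, whatever the other genotype showed. These values are the background for the lists that follow. By library a summit lay at 0.0868%, 5.07% and 14.6% of genes in WT replicates 1 to 3, and at 5.74%, 6.40% and 0.927% in Het replicates 1 to 3. A gene bound in WT replicate 3 cannot be on the Het side.

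Ribosome biogenesis had the largest shared part of the 23 lists. Of its 34 genes 16 were shared (47.1%), 2 were on the WT side and 0 on the Het side, and 20 had at least 2 WT and 20 at least 2 Het libraries. Ppan, a factor of large-subunit assembly, had folds of 10.2 and 19.2 in WT replicates 2 and 3 and 13.7, 14.9 and 6.31 in Het. Wdr43 and Ddx21, both of rRNA synthesis and processing, were also bound in 5 libraries. The WT-side members were Wdr12, a partner of Bop1, with 5.66 and 4.70, and Nop16 with 6.60 and 8.81, both from WT replicates 2 and 3. Wdr12 shares its region with Carf, and Nop16 with Higd2a. Among the core proteins of the snoRNPs that modify rRNA, Fbl, Nop56, Nop58, Dkc1, Gar1 and Nhp2 were shared, while Nop10 had a peak in WT replicate 3 alone.

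The machinery of RNA polymerase I and III had 7 of 20 members shared and 1 on the WT side. Polr1b, a large subunit of polymerase I, had 10.4 and 13.4 in WT replicates 2 and 3 and 13.6, 15.8 and 4.65 in Het. Taf1d, a factor of the polymerase I promoter complex, was the WT-side member with 5.03 and 7.75, in a region it shares with 4931406C07Rik.

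Of 44 large-subunit ribosomal protein genes 14 were shared and 1, Rpl15, was on the WT side (6.76 and 5.84). Rpl15 shares its region with Nkiras1. Whatever the other genotype showed, 16 members had at least 2 WT libraries and 21 had at least 2 Het libraries. Of all 21887 genes 1059 and 910 did. Of 32 small-subunit genes 13 were shared and 0 were on either side. Counted apart, 16 had at least 2 WT libraries and 16 at least 2 Het libraries. Rpl12, Rpl32, Rpl10a and Rpl5 had 5 libraries each. Rps25, which shares its region with Trappc4, had 11.5 and 8.12 in WT replicates 2 and 3 and 10.1 and 10.7 in Het replicates 1 and 2.

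Translation factors had 12 of 28 members shared. Eif5a, an elongation factor that carries hypusine, had 14.0 and 18.3 in WT and 20.0, 15.6 and 9.89 in Het. Eif2s2, the beta subunit of the initiator tRNA carrier eIF2, was on the WT side with 4.04 and 5.33. Eif2s3x, the gamma subunit, was among the 10 named WT-side genes with 8.97 and 8.50. Of 20 aminoacyl-tRNA synthetases 3 were shared, Vars, Tars and Gars. Of 31 genes of nucleotide and polyamine synthesis 12 were shared and 0 on either side. Odc1, ornithine decarboxylase, which starts the making of polyamines, had 9.27 and 25.1 in WT replicates 2 and 3 and 9.54, 17.8 and 5.66 in Het.

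**Figure D3:**
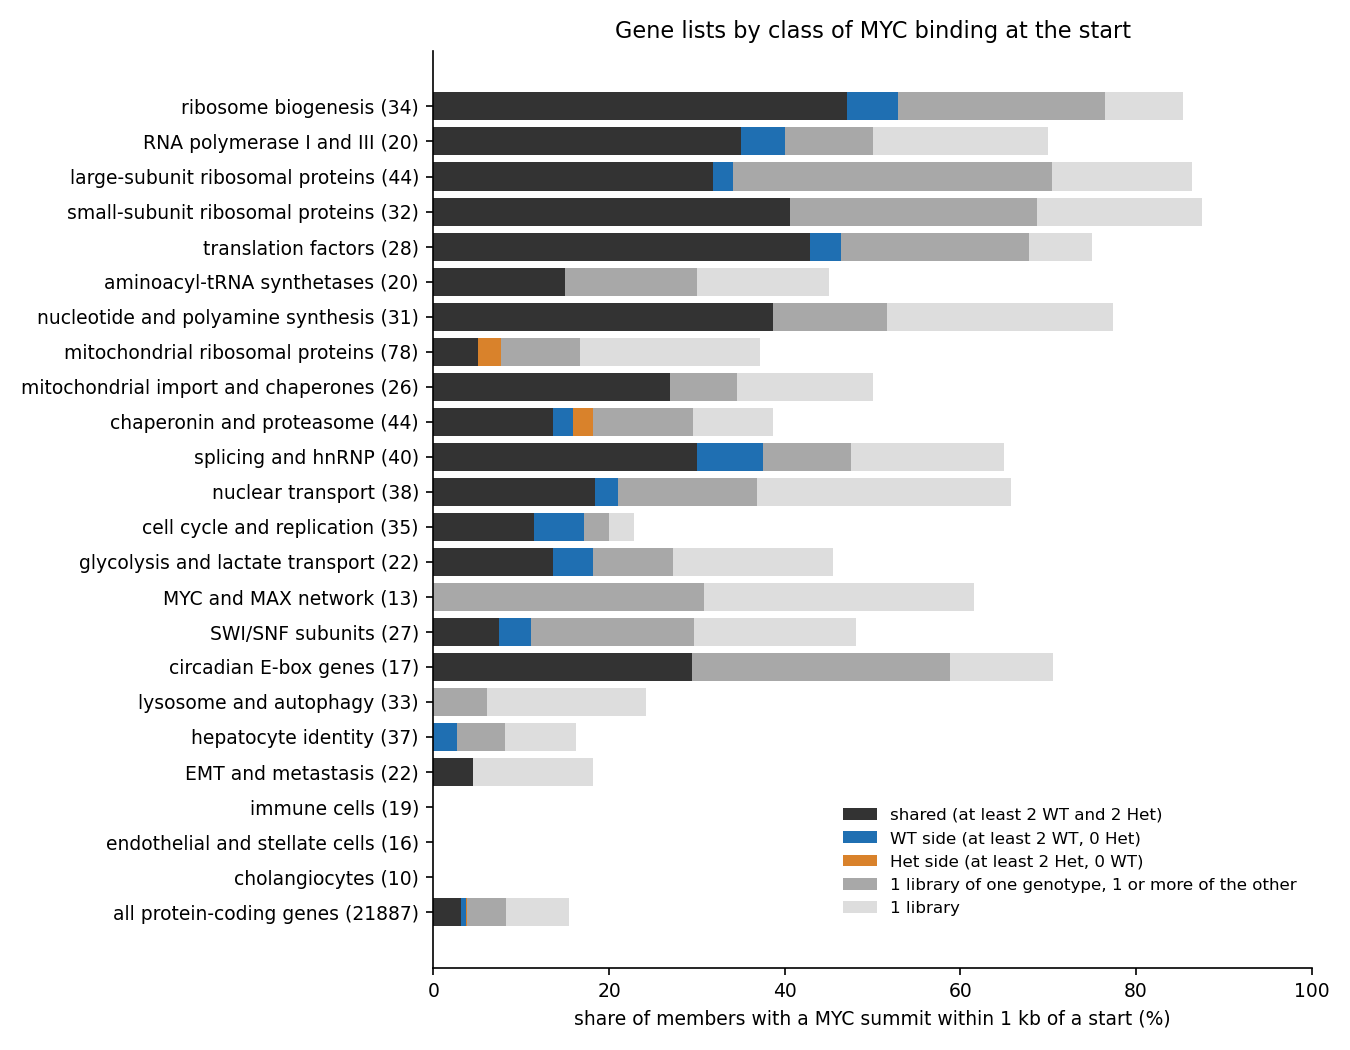
Share of the members of 23 gene lists and of all protein-coding genes (number of members in parentheses) with a MYC summit within 1 kb of a start, in percent, split by class. The shared part is wider than both side parts together in every list with a shared member, WT-side members appear in 11 lists and Het-side members in 2, and 3 lists of other cell types are empty.

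Het-side genes of the lists were mitochondrial ribosomal proteins and a proteasome subunit. Of 78 mitochondrial ribosomal proteins 4 were shared (5.13%, near the 3.08% of all genes), 0 were on the WT side and 2 on the Het side. Mrpl50, which shares its region with Zfp189, had 7.18 and 7.64 in Het replicates 1 and 2, and Mrps18a had 4.96 and 9.05. Of 26 genes of mitochondrial import and folding 7 were shared, among them the divergent pair Hspd1 and Hspe1, the mitochondrial chaperonin and its partner, with 10.5 and 16.8 in WT and 10.9, 11.95 and 10.4 in Het. Of 44 chaperonin and proteasome genes 6 were shared, of which Cct2, Cct3, Cct4, Cct7 and Cct8 form part of the CCT ring that folds actin and tubulin and Psme3 is a proteasome activator. Psmc2, a proteasome ATPase, was on the WT side (6.65 and 6.64) and Psmb4, a core subunit, on the Het side (5.97 and 5.25). Psmc2 shares its region with Dnajc2.

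Of 40 splicing and hnRNP genes 12 were shared (30.0%) and 3 were on the WT side. Pcbp1, an RNA-binding protein, was bound in 5 libraries, with 9.70 and 29.1 in WT and 12.97, 15.2 and 7.19 in Het. The RNA-binding proteins Srsf3 (6.11 and 7.11), Srsf10 (5.84 and 6.96) and Hnrnpab (5.73 and 7.64) were on the WT side. Of 38 nuclear transport genes 7 were shared (18.4%), among them Ran, the GTPase that drives the transport, and Nup205 was on the WT side with 6.40 and 8.01.

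Of 35 cell cycle genes 8 had a peak in any library (22.9%, against 15.4% of all genes), 4 were shared (11.4%, against 3.08%; Ccne2, Cdt1, Mcm7 and Aurka) and 2 were on the WT side. Cdk4, the G1 kinase, had 3.95 and 5.58 in WT replicates 2 and 3, and Mcm6, a subunit of the replicative helicase, had 6.16 and 5.75. Of 22 glycolysis genes 3 were shared (Pkm, Ldha and the lactate carrier Slc16a1) and Pfkl, the liver phosphofructokinase, was on the WT side with 8.10 and 8.46. Pfkl kept that side after thinning.

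Of 13 members of the MYC and MAX network 8 had a peak in any library (61.5%) and 0 were in 2 libraries of a genotype, while Max, Mnt, Mga and Mlxip each had 1 WT and 1 Het library. Of 27 SWI/SNF subunits 13 had a peak in any library (48.1%), 4 had at least 2 WT and 3 at least 2 Het libraries, and 2 were shared (7.41%, against 3.08% of all genes), Smarca4 and Pbrm1, the second in a region it shares with Gnl3. Bcl7b was on the WT side with 3.95 and 6.98. At Arid1a itself WT replicate 3 had a peak with a fold of 10.8, and Het replicates 1 and 2 had 4.25 and 7.74, near a start inside the gene span (chr4:133754435). Of 17 circadian genes with E-boxes 5 were shared, among them Nr1d1, Nr1d2 and Per2, and 0 were on either side.

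Of 37 hepatocyte genes 6 had a peak in any library (16.2%, near the 15.4% of all genes), 0 were shared and 1 was on the WT side (Ass1, of the urea cycle, with 5.51 and 6.93). Peaks do not measure expression, so the liver label could not be checked from them. Alb and Afp had no peak at a start in any of the 6 libraries, and Cebpb had 1 of fold 2.51 in WT replicate 3. None of 19 immune, 16 endothelial and stellate or 10 cholangiocyte markers had a peak at a start in any library. Of 33 lysosome and autophagy genes 8 had a peak in any library (24.2%) and 0 were shared. Of 22 genes of EMT and metastasis 4 had a peak in any library (18.2%, near the 15.4% of all genes). Among the 22, 1 was shared (4.55%, near the 3.08% of all genes), Snai1, a repressor of E-cadherin.

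The WT-side regions at starts touched 149 genes, of which 142 had no peak of any Het library at another start. First by rank was Senp5, a SUMO protease, with folds of 10.4 and 11.7 in WT replicates 2 and 3. Next were the histone pair H2ac13 and H2bc13 (8.93 and 9.64), whose copies are nearly alike so that reads may be split between them, and Dpp8 (8.10 and 10.2). Cdc73, of the PAF1 elongation complex, had 7.10 and 13.2, Tpst1 7.03 and 12.3, and Hes1, a Notch target, 7.49 and 10.5. Hes1 (span 30065357 to 30067796, summit 30066997) is placed by the higher end of its span, since it has no start site among the RefSeq windows used. Its strand was not known here, so that peak may lie at the far end of the gene and not at its start. After thinning, the regions of Senp5, the histone pair, Dpp8, Eif2s3x, Cdc73 and Pfkl kept their class. So did those of Ybx1, Amh, Gm32584 and the pair Cib1 and Gdpgp1, which are named because they did.

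Het-side regions lay at the starts of 18 genes. Pyurf had 6.34 and 11.3 in Het replicates 1 and 2 and kept its class after thinning, as did the region of Mrpl50 and Zfp189. Arih1, a ubiquitin ligase, had 6.59 and 9.23, but a WT library had a peak at another Arih1 start. Pdia4, a disulfide isomerase of the endoplasmic reticulum, had 5.29 and 7.61, Rasal2, a RAS GTPase-activating protein, 6.52 and 6.67, and Nek6, a mitotic kinase, 7.03 and 5.36. Nfe2l1, the factor that drives proteasome genes, had 6.59 and 4.79 and was named after its values were seen, beside Psmb4 above. Its percentiles in Het replicates 1 and 2 were 47.0 and 8.83, and those of Psmb4 34.9 and 15.7. The proteasome gene Psmc2 was on the WT side, so these genes show no common direction. The first WT-side region off starts lay inside Zc3h14 (chr12:98746755-98747093), with 9.25 and 12.4.

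Within the shared sites, strength was ranked in 842 regions that had a peak in WT replicates 2 and 3 and Het replicates 1 and 2. Ranks were no closer within a genotype than between genotypes. Across regions, which are not independent, Spearman's rho was 0.35 between the WT lists, 0.36 between the Het lists and 0.37 to 0.40 in the 4 pairs between genotypes. The median difference in rank between 2 libraries was 21.4 percentile points within WT, 20.3 within Het and 19.7 to 21.2 between genotypes. Both WT ranks lay above both Het ranks in 112 regions (13.3%), both Het ranks above both WT ranks in 135 (16.0%), and they overlapped in the other 595.

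The regions with the widest gap show single genes, chosen for that gap and so given without a test. Nme1, a nucleoside diphosphate kinase, stood at rank percentiles of 77.3 and 71.3 in WT replicates 2 and 3 and 15.2 and 0.95 in Het replicates 1 and 2. Utp25, of the small-subunit processome, stood at 84.7 and 36.5 against 6.18 and 0.48. Snai1 stood at 63.1 and 94.5 against 34.8 and 15.5. Rpl18, whose region also lies at Sphk2, had 52.6 and 86.2 against 24.9 and 1.37. In the other direction Naa10, an N-terminal acetyltransferase, had 3.09 and 6.12 in WT against 71.9 and 62.7 in Het. Rpl5 had 27.6 and 25.7 against 86.5 and 88.0, Rae1, an mRNA export factor, 9.03 and 49.3 against 85.6 and 95.5, and Ncoa5 38.0 and 29.0 against 93.5 and 84.6. Ribosomal protein genes thus stood at both ends. By list, the median Het minus WT rank difference was −12.5 points over 16 ribosome biogenesis regions, −19.6 over 12 of nucleotide and polyamine synthesis, −2.85 over 11 of splicing and −0.37 over 12 of translation factors. It was 5.55 over 14 large-subunit regions, where the mean ranks go the other way (56.9 in WT and 55.2 in Het), and 2.61 over 13 small-subunit regions. Lists with fewer ranked regions had 28.4 (circadian, 5 regions), 17.4 (chaperonin and proteasome, 6), 11.6 (mitochondrial import, 5) and 10.8 (aminoacyl-tRNA synthetases, 3), and the others lay between −7.42 and 10.5, apart from Snai1 alone. Over all 842 regions the median was −0.19.

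**Figure D4:**
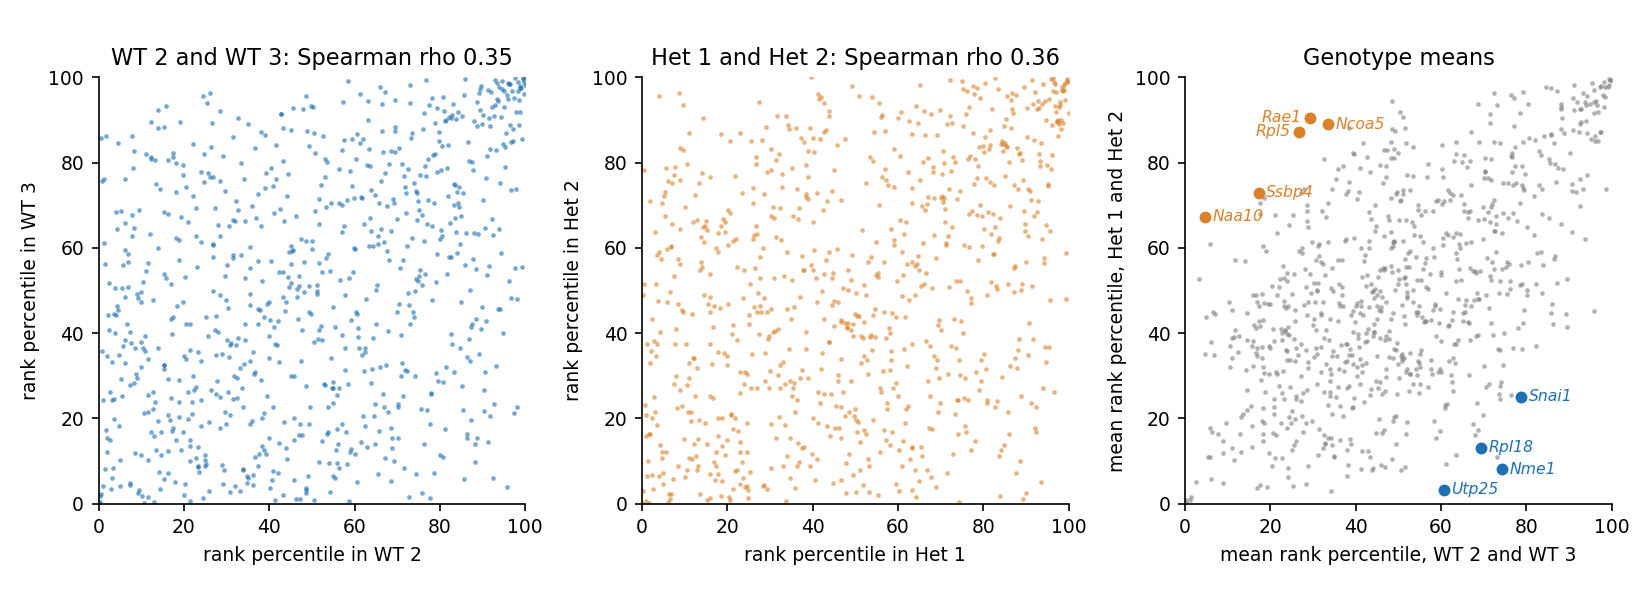
Rank percentile by the authors' fold of the 842 regions found in all 4 long lists, for the WT pair (left), the Het pair (middle) and the genotype means (right), where the named genes of largest difference are coloured (WT higher blue, Het higher orange). The scatter is wide within each genotype (rho 0.35 and 0.36), and the coloured genes lie at the edges of the right panel.

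In both genotypes the E-box was more frequent in promoter windows with a summit than in all promoter windows. Outside WT replicate 1, most windows with a summit held none. Over both strands, which read the same for a palindrome, 7.84% of 21263 promoter windows of 300 bp held a CACGTG. Among windows with a summit inside, the share was 40.6% (169 of 416, exact 95% interval 35.9% to 45.5%) in WT replicate 2 and 25.3% (362 of 1429, 23.1% to 27.7%) in WT replicate 3. It was 37.2% (181 of 486) in Het replicate 1, 34.7% (164 of 472) in Het replicate 2 and 45.6% (26 of 57) in Het replicate 3. WT replicate 1 had 3 such windows and all 3 held one. The mean was 55.3% ± 39.4 in WT and 39.2% ± 5.69 in Het (SD, n = 3 each), a difference of −16.1 percentage points (two-sided exact permutation test p = 0.8, adjusted p = 0.8) that was 6.22 without WT replicate 1. The other palindrome CAGCTG, bound by other factors of the family, stood in 15.6% of all windows and in 9.38% to 12.3% of the bound windows of the other 5 libraries.

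By class, 41.3% of the 235 windows under a shared summit held the motif (exact 95% interval 34.9% to 47.9%), as did 40.6% of the 64 under a WT-side summit (28.5% to 53.6%). Of the 5 windows under a Het-side summit 0 held one, which allows up to 52.2%. Windows under a summit of 1 library had 18.3% of 770 (15.6% to 21.2%). Between these lay regions of 1 WT and 1 Het library with the motif in 51 of 204 windows, of at least 2 Het and 1 WT library with 27.8% of 90, and of at least 2 WT and 1 Het library with 32.1% of 106. The WT-side share equals that of all windows of WT replicate 2, which bound 195 of the 197 WT-side regions. It lies above the 25.3% of WT replicate 3, which bound all 197. From the summit to the nearest CACGTG the median was 29 and 32.5 bp in WT replicates 2 and 3 and 30 and 29 bp in Het replicates 1 and 2, against 84 to 93.5 bp for CAGCTG in the same libraries. In Het replicate 3, with 26 such windows, it was 49 bp, and in WT replicate 1, with 3, it was 14 bp.

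**Figure D5:**
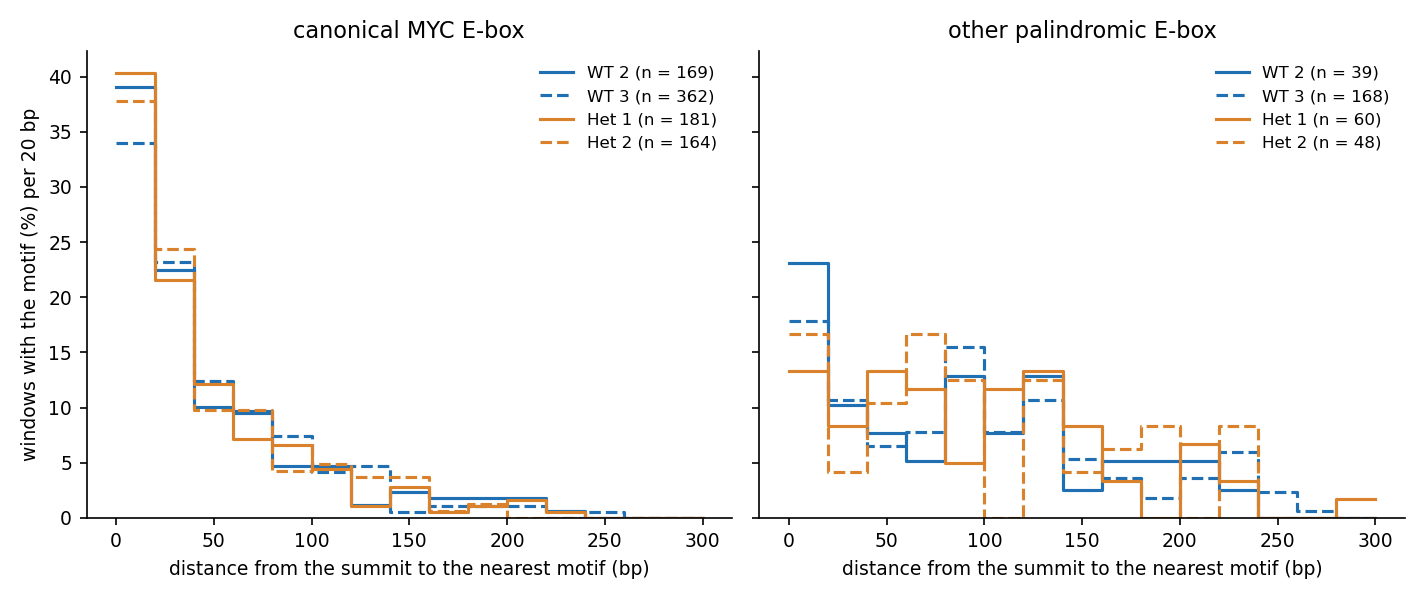
Distance in bp from the summit to the nearest motif in promoter windows that hold a summit and the motif, in percent of such windows per 20 bp, for the 4 long lists (WT blue, Het orange), with the canonical E-box on the left and the other palindromic E-box on the right. The curves of both genotypes lie on each other on the left, with medians of 29 to 32.5 bp.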

How the data were processed

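Each of the 6 MYC libraries had its own deposited peak list, made by the authors from reads on mm10. Per the submitters' processing notes, their tools were MACS2 (2.0.10.20131216), HOMER, Picard and Bowtie2 (2.2.3). No source used here gives the caller's threshold. The lists hold the authors' fold over background (a ratio), deposited −log10 p and −log10 q values, a deposited score that was not used, and the summit offset. Peaks overlapping by at least 1 bp were merged with bedtools 2.31.1, the fold being used only for ranks within a list. Start sites came from RefSeq promoter windows of GRCm38.p6 for 17492 of 21887 protein-coding genes, and from either end of the gene span for the other 4395, for which strand and start are unknown. Of the 12 named shared genes 9 had a window.

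Reads at summits were solved from fold and p by the MACS2 formulas, with 1 solution for 99.7% of peaks. Thinning to 1 depth can only remove listed peaks. Intervals of shares are Clopper-Pearson at 95%, for counting error alone. Libraries were compared by exact permutation tests with Benjamini-Hochberg adjustment over 4 tests (scipy 1.17.1). The scripts were tested on simulated lists. Members, 23 gene lists and tests were chosen with earlier results of these data known, so no list was tested. Of 689 list entries 686 matched a gene. Named were the 12 shared genes and up to 10 genes a side with the most libraries and highest mean rank percentile, up to 4 members a list with those on 1 side, the 5 widest rank gaps in each direction, regions off starts, Arid1a, Alb, Afp and Cebpb. Alternatives were stricter limits, thinning, lists of 1 length, other windows and merging, each library left out, and a replicate block. Homo libraries and input samples were not used beyond the count of regions. A gene and a region that the rule named are not reported here.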

Additional observations from a re-analysis of the deposited data

How the results depend on the processing

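The raw p of the 4 tests ranged from 0.1 to 1 over the alternatives, and 3 against 3 libraries allow none below 0.1. With each library left out in turn, WT-side regions ranged from 0 to 361, Het-side regions from 0 to 297, shared regions from 79 to 863 and their gene-start share from 19.0% to 70.1%. The Het minus WT difference then ranged from −0.39 to 0.45 in log10 peaks, from −5.02 to 21.0 points in gene-start share and from −31.1 to 6.22 points in E-box share, and the overlap difference from −5.97 to 7.08 points.

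Thinning to the shallowest input, with −log10 p of at least 10, gave 38 WT-side, 82 Het-side and 408 shared regions with a gene-start share of 63.0%. Lists cut to 92 peaks gave 12, 7 and 41 regions, a share of 19.5% and an overlap difference of −1.75. Without WT replicate 1 and cut to 378 peaks there were 21, 68 and 109 regions, a share of 52.3%, a gene-start difference of −3.22 and an overlap difference of −1.41. A fold of at least 5 gave 57 Het-side regions and a share of 64.8%. Windows of 250 bp and 5 kb gave shares of 47.6% and 77.8%, and either span end for every gene, chosen after seeing the data, 64.0%. Cut lists and left-out libraries hold fewer peaks by construction, and beyond that the cause was not tested.

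Same-numbered WT and Het libraries deviated together with correlations of −0.17, 0.14 and 0.19 over 4775 regions. Libraries of different numbers had −0.31 to 0.28. So few values, from lists of such unlike length, cannot tell whether the numbers pair the libraries. With the replicate number as a block the differences were 0.10 in log10 peaks, 11.5 points in gene-start share, 2.20 in overlap and −16.1 in E-box share, with exact p from 0.25 to 0.75. Over 3 pairs p cannot go below 0.25, so this fit could not change a call.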
